A study of Oreochromis mossambicus with 6 samples.

Results

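Nuclear receptors are transcription factors that bind DNA directly, and many are switched by a small fat-soluble ligand such as a fatty acid, retinoic acid, thyroid hormone, vitamin D, an oxysterol or a steroid. A large share of them bind DNA as a pair with a retinoid X receptor (RXR) and trade corepressor proteins for coactivators once ligand is bound. Orphan receptors have no settled natural ligand, and their output depends largely on how much of the receptor is made. In the teleost gill the corticosteroid receptors have been studied most, and the members described here are the other receptors of the family, without the corticosteroid receptors (nr3c1 and nr3c2) and without the clock repressors of the nr1d group.

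Members were taken by gene symbol, as all genes named in the manner of nuclear receptors with at least 10 counts over the 6 libraries. Of 57 matching genes 49 reached that minimum, among 24878 genes tested and 32591 in the table. The 8 genes left out (nr1h4, hnf4a, nr5a1, nr5a5, nr0b1, nr2e1, nr2e3 and NR2E3) had between 0 and 7 counts in all. The rule by symbol also took 5 genes that are not receptors, namely the coactivators ppargc1a and ppargc1b, the receptor-associated genes thrap3a and thrap3b, and nr2c2ap, so that 44 members were receptor genes. Of these, 36 had a mean of at least 1 CPM (read counts scaled to the size of each library after adjustment by edgeR's TMM normalization factors). Symbols that differ only in case, such as ppara and PPARA, belong to separate genes in the table, and their Ensembl identifiers are given.

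Gill filaments came from 6 male Mozambique tilapia (Oreochromis mossambicus) labelled as wild type and weighing 80 to 110 g by the series text, whose age is not given. Every fish was hypophysectomized, so that both groups lacked their own pituitary hormones and the glands under pituitary control lacked their usual drive. After 5 days of recovery at a salinity of 12 ppt, 3 fish received ovine prolactin (oPrl) at 5 μg per g body weight and 3 received saline vehicle, in 3 intraperitoneal injections 48 h apart. By the study, the fish were unfed both in recovery and in the post-injection period. Filaments were taken 24 h after the last injection, and 1 library was sequenced per fish.

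Library totals were 30516271 to 32959492 counts with oPrl and 21643589 to 35976655 with vehicle. The epithelial marker epcam was present at means of 1467 and 2087 CPM with oPrl and vehicle, and the ionocyte factor foxi3b at 159 and 140 CPM. Of 58 marker genes for leukocytes, erythrocytes, skeletal muscle, ionocytes, epithelium and endothelium, edgeR's quasi-likelihood test called 0, compared with 1.4% of all genes. It had 12 at an unadjusted p under 0.05 (20.7%, compared with 21.7% of all genes). DESeq2 called 1 of the 54 with an adjusted p (1.85%, compared with 7.16% of all genes). The summed level of the 9 epithelial markers was 7112 to 11000 CPM with oPrl and 12170 to 13180 CPM with vehicle and did not overlap, whereas the sums of the other 5 lists overlapped. The lower sum came from krt5, krt8 and epcam (log2 fold changes -0.81, -0.56 and -0.51), while 3 of the 9 were higher with oPrl, tp63 without overlap (0.65), and the median of the list was -0.14 (genes named here after their values were seen). Vehicle replicate 3, the smallest library, stood apart in this gene family. Among the 41 members with a mean of at least 1 CPM it lay more than 2-fold below the lower of the other vehicle fish in 9 (22%), compared with 4.86% of all 17629 genes at that level, and it was the lowest of the 6 libraries in 15 (36.6%), compared with 25.8% of all genes. For these 9 genes, and for several others, the value without it is also given.

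None of the receptors passed the main test, and the shares that passed looser limits in edgeR lay close to those of all genes. A gene was called where its adjusted p was under 0.01 and its log2 fold change, oPrl relative to vehicle, was beyond 1 in either direction. The quasi-likelihood test of edgeR called 0 of 49 members, compared with 1.4% of all genes (0.687% lower and 0.715% higher with oPrl). At an unadjusted p under 0.05 it had 12 members (24.5%), 8 lower and 4 higher with oPrl, compared with 21.7% of all genes (10.1% lower and 11.6% higher). With the adjusted p under 0.05 at any fold it had 3, rorcb, ppara and pparg, all lower, compared with 6.11% of all genes (2.83% lower and 3.28% higher). DESeq2 at the main thresholds called 5 of the 44 members for which it gave an adjusted p (11.4%), compared with 7.16% of all such genes. These were ppara, rorcb, nr4a1 and nr2f6b, lower with oPrl (3.5% of all genes), and esrrga, higher with oPrl (3.66% of all genes). The oPrl and vehicle fish did not overlap in 16 members (32.7%), compared with 29% of all genes. In 7 of the 16 the oPrl fish were above (16.3% of all genes) and in 9 below (12.7%). The median absolute log2 fold change was 0.45, compared with 0.43 over all genes. The median signed change was -0.14, with 29 members lower and 20 higher, but with library totals as the only scaling it was 0.03, with 24 lower and 25 higher. That scaling moved the median of all genes from 0.02 to 0.19.

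**Figure D1:**
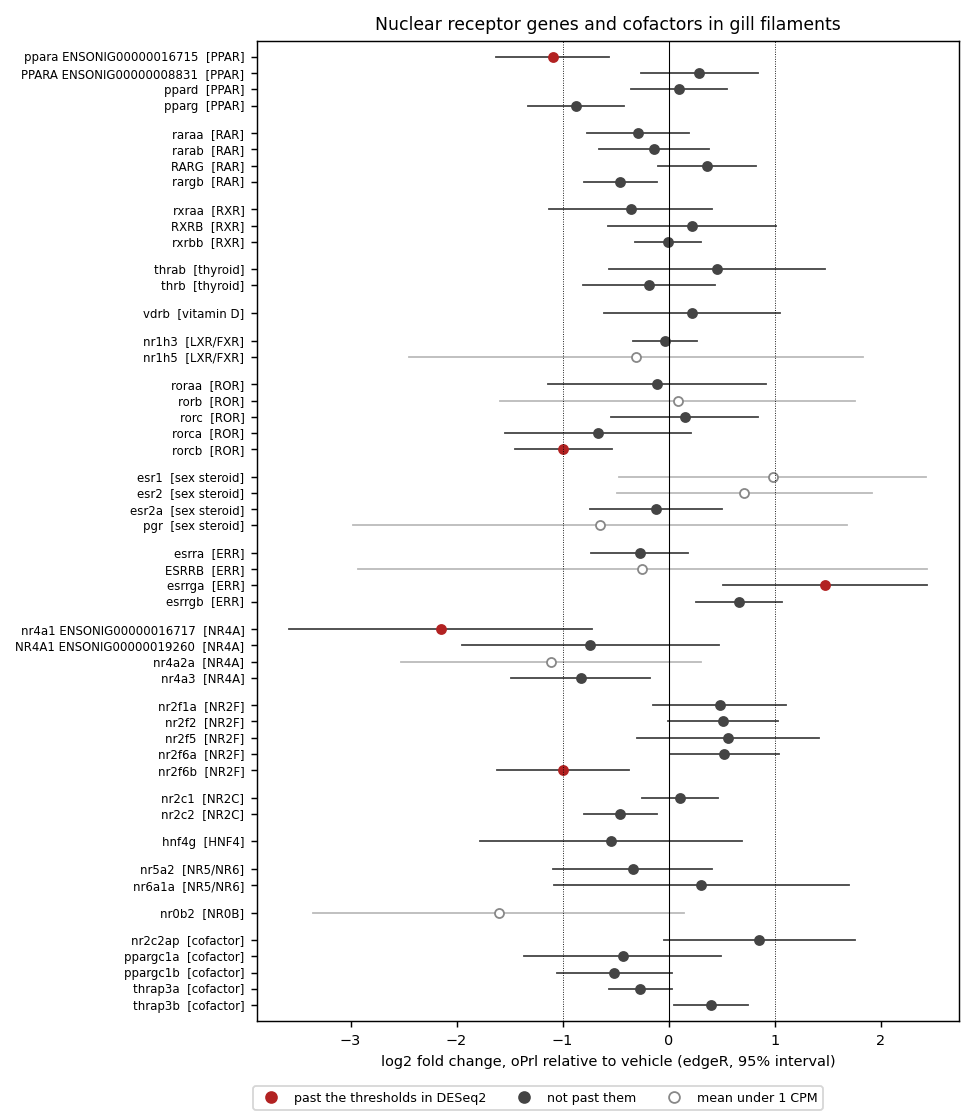
Log2 fold change of each of the 49 members, oPrl relative to vehicle, with its 95% interval from edgeR, grouped by receptor class. Dotted lines mark a log2 fold change of 1 in either direction, red points are the 5 members past the thresholds in DESeq2, and open points are members with a mean under 1 CPM. Most intervals include 0, and nr4a1 and esrrga lie farthest from it among members with a mean of at least 1 CPM.

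The peroxisome proliferator-activated receptors bind fatty acids and their derivatives. In mammals PPAR alpha turns on fatty acid oxidation and PPAR gamma directs fat storage. The gene ppara (ENSONIG00000016715) had 16.7, 18.4 and 16.7 CPM in the oPrl fish and 32.9, 49.1 and 28.6 CPM in the vehicle fish. Every oPrl fish lay below every vehicle fish, and the oPrl fish were close to each other. The level was 2.14-fold lower with oPrl, a log2 fold change of -1.09 ± 0.23, where ± gives the standard error from edgeR throughout (adjusted p = 0.035 by edgeR's quasi-likelihood test, past the threshold only in DESeq2 at 0.000172). In bulk filaments, fewer cells that express a gene and less RNA per cell cannot be told apart, here and for all members that follow. Its duplicate PPARA (ENSONIG00000008831) had 24, 21 and 26.8 CPM with oPrl and 22.4, 22.8 and 13.5 CPM with vehicle. These groups overlapped, and vehicle replicate 3 was the low fish (log2 fold change 0.29 ± 0.24, adjusted p = 0.541, edgeR, and 0.09 without that fish).

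Expression of pparg was 23.9, 36.3 and 27 CPM with oPrl and 58.3, 49.1 and 52.6 CPM with vehicle. All oPrl fish were below all vehicle fish, with oPrl replicate 2 the highest of its group. On the log2 scale the difference was -0.87 ± 0.19 (adjusted p = 0.044, edgeR), and without oPrl replicate 2 it was -1.07 (adjusted p = 0.0194). The third member of the class, ppard, which is broadly expressed in vertebrates, had 29.6 to 43.6 CPM with oPrl and 31 to 38.4 CPM with vehicle, and its log2 fold change was 0.10 with a 95% interval of -0.35 to 0.55. The coactivators ppargc1a and ppargc1b, which work with PPARs and estrogen-related receptors on mitochondrial genes, had log2 fold changes of -0.43 and -0.51 (adjusted p = 0.593 and 0.254, edgeR). The ppargc1a vehicle fish spread from 8.24 CPM in vehicle replicate 3 to 27.8 CPM in vehicle replicate 1. Leaving out vehicle replicate 3 moved the ppargc1a difference to -0.78 on the log2 scale (edgeR adjusted p = 0.102). Leaving out vehicle replicate 1 instead brought this difference to -0.04 (edgeR adjusted p = 0.975), so the size of the fall depended on single vehicle fish.

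The pathway lists here and below were chosen with earlier results of these data known. Their shares therefore cannot test whether a pathway stands apart from all genes. Of 25 genes of fatty acid oxidation and storage that PPARs control in mammals, edgeR and DESeq2 called 0. In edgeR 4 had an unadjusted p under 0.05 (16%, compared with 21.7% of all genes). The median log2 fold change was -0.09, with 15 lower and 10 higher. The smallest p belonged to cpt2, the inner membrane carnitine palmitoyltransferase, at 38.4 to 43.3 CPM with oPrl and 23.3 to 30.8 CPM with vehicle (log2 fold change 0.60, adjusted p = 0.0859, edgeR). It was followed by acadl and acaa2, which act in mitochondrial beta-oxidation, at 0.57 and -0.54 (adjusted p = 0.189 and 0.2).

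**Figure D2:**
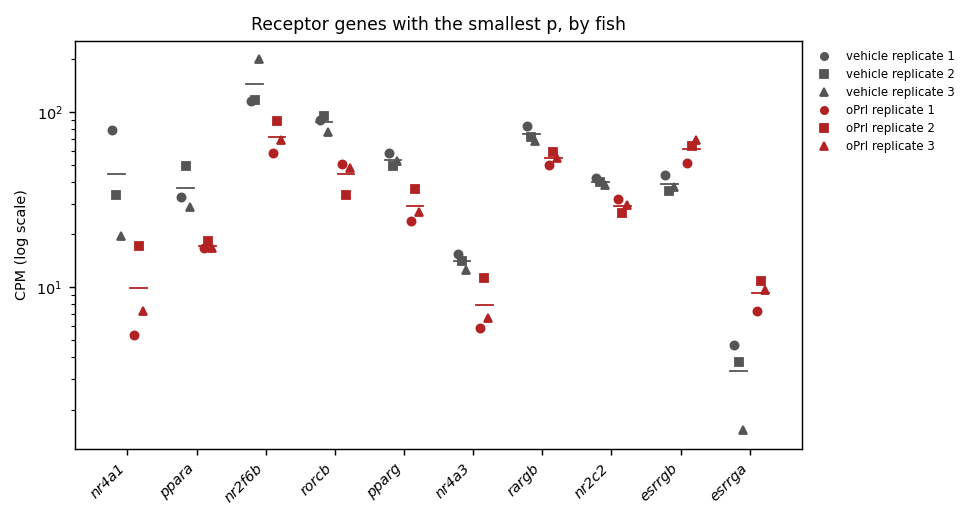
CPM on a log scale in each fish for the 10 members with the smallest edgeR p among those with a mean of at least 1 CPM, with vehicle fish in grey, oPrl fish in red, a marker shape per replicate and a bar at the group mean. The genes were chosen by p, so a lack of overlap was likely beforehand. The groups do not overlap in any of the 10 genes, compared with 16 of all 49 members and 29% of all genes. Vehicle replicate 3 is the highest fish for nr2f6b and the lowest for esrrga. Among vehicle fish it is also the lowest for ppara, rargb, rorcb, nr4a1, nr4a3 and nr2c2.

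Retinoic acid receptors are activated by retinoic acid and pair with RXRs. RARG, the counterpart of the main retinoic acid receptor of mammalian skin, had 133, 212 and 154 CPM with oPrl and 133, 138 and 117 CPM with vehicle. The groups overlapped, oPrl replicate 2 being the highest fish, and edgeR gave a log2 fold change of 0.36 ± 0.20 (adjusted p = 0.352). The related rargb had 50, 58.8 and 54.7 CPM with oPrl and 83.3, 72.4 and 68.7 CPM with vehicle. Here every oPrl fish was below every vehicle fish (log2 fold change -0.46 ± 0.15, adjusted p = 0.127, edgeR). The genes raraa and rarab overlapped between groups, with log2 fold changes of -0.29 and -0.13. Of the partner receptors, rxrbb had a log2 fold change near 0 with a 95% interval of -0.32 to 0.31, in fish that ranged from 62.4 to 71.2 CPM. RXRB had 17.9, 17.2 and 17.2 CPM with oPrl and 18.3, 19.1 and 7.38 CPM with vehicle, and its log2 fold change of 0.22 was -0.10 without vehicle replicate 3. For rxraa the values were -0.36 and, without that fish, -0.62 (adjusted p = 0.169, edgeR). Without vehicle replicate 1 the value of rxraa was -0.21 (adjusted p = 0.829).

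Calls were made among genes that carry and break down retinoids. Of 19 such genes edgeR called 1, rbp2a (5.26%, compared with 1.4% of all genes). DESeq2 called 3 of the 18 with an adjusted p, rbp2a, rbp4 and cyp26a1 (16.7%, compared with 7.16% of all genes). All were lower with oPrl. The median log2 fold change was -0.24, with 14 lower and 5 higher. The cellular retinol-binding protein gene rbp2a had 44.2, 19.5 and 31.2 CPM with oPrl and 232, 134 and 233 CPM with vehicle, a 6.31-fold fall. Its log2 fold change was -2.66 ± 0.35 (adjusted p = 0.00843, edgeR). Leaving out single libraries put it between -2.98 and -2.40, but it was not past the threshold in any of these fits (adjusted p of 0.0146 to 0.0461), nor with library totals as the only scaling (adjusted p = 0.0107). The plasma retinol carrier rbp4 had 7.72, 15 and 10.7 CPM with oPrl and 33.6, 30.3 and 30.6 CPM with vehicle (log2 fold change -1.50, adjusted p = 0.0188, edgeR). The gene cyp26a1, which encodes a retinoic acid hydroxylase and is itself a retinoic acid target in vertebrates, had 0.444, 0.0307 and 0.538 CPM with oPrl and 7.17, 6.14 and 5.24 CPM with vehicle. The value of oPrl replicate 2 rested on 1 count. The difference on the log2 scale was -4.17 ± 0.73 (adjusted p = 0.0204, edgeR), and without that fish it was -3.64 (adjusted p = 0.00616). The summed epithelial markers, though not each of them, were also lower with oPrl, and their part in these values was not tested.

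**Figure D3:**
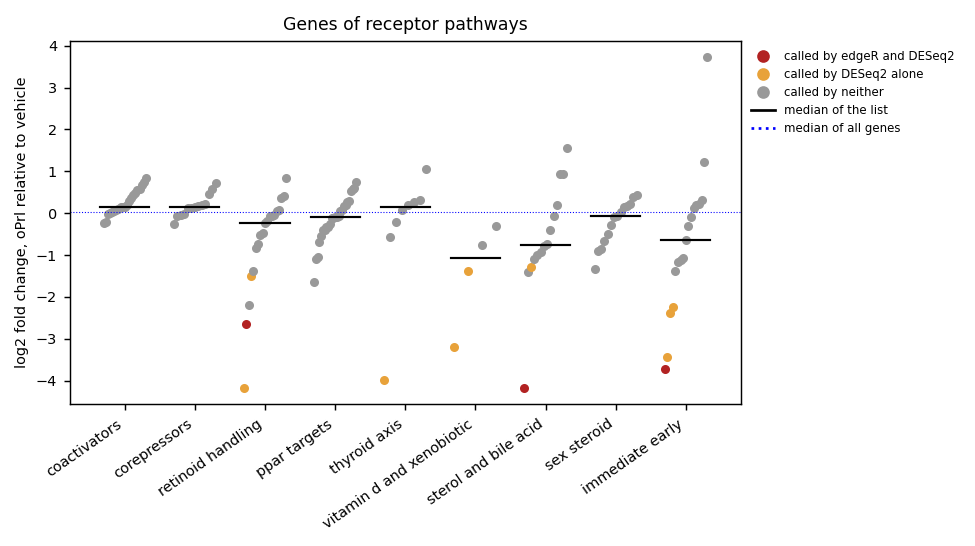
Log2 fold change of each gene in the 9 pathway lists, oPrl relative to vehicle, with a bar at the median of each list and a dotted line at the median of all genes. Red points are called by edgeR and DESeq2 and orange points by DESeq2 alone, and all 12 called genes lie below 0.

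The thyroid hormone receptors, the vitamin D receptor and the liver X receptor were not called by either tool. The gene thrb had 39.6 to 61 CPM with oPrl and 41.2 to 77.3 CPM with vehicle (log2 fold change -0.19, adjusted p = 0.746, edgeR, and -0.38 without vehicle replicate 3), and thrab, at 3.79, 4.08 and 4.95 CPM with oPrl and 3.72, 4.26 and 1.32 CPM with vehicle, had 0.45 (adjusted p = 0.611). Without vehicle replicate 3 the value of thrab was 0.10. That of thrb was 0.03 without vehicle replicate 2. Of 8 genes of thyroid hormone supply and response, edgeR called 0 and DESeq2 called 1 (12.5%, compared with 7.16% of all genes). In edgeR 2 had an unadjusted p under 0.05 (25%, compared with 21.7% of all genes). The one called was klf9, a transcription factor gene that both thyroid hormone and glucocorticoids induce in vertebrates. It had 4.61, 14.9 and 2.6 CPM with oPrl and 106, 104 and 141 CPM with vehicle, with a log2 fold change of -3.99 ± 0.63 (adjusted p = 0.0149 in edgeR and 3.23e-11 in DESeq2). The deiodinase gene dio1 had a log2 fold change of 0.31 (adjusted p = 0.404, edgeR).

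The vitamin D receptor gene vdrb had 7.96, 6.05 and 7.24 CPM with oPrl and 8.02, 6.96 and 3.21 CPM with vehicle. The groups overlapped, and the log2 fold change of 0.22 (adjusted p = 0.777, edgeR) was -0.07 without vehicle replicate 3. In contrast, cyp24a1, the enzyme that inactivates the vitamin D hormone and a textbook target of its receptor, had 18, 29.5 and 13.8 CPM with oPrl and 161, 300 and 106 CPM with vehicle. It was 9.23-fold lower, with no overlap, a log2 fold change of -3.21 ± 0.46. In edgeR the adjusted p was 0.0103, just above the threshold, and in DESeq2 it was 5.22e-12. With RLE size factors in edgeR it was past the threshold (adjusted p = 0.00947), and so it was under both other count filters and with the replicate number as a block, but not with any library left out (0.0135 to 0.0476). The epithelial calcium channel gene trpv6, a vitamin D target in mammals, had 72.8, 48.6 and 53.8 CPM with oPrl and 124, 111 and 222 CPM with vehicle (log2 fold change -1.38, adjusted p = 0.0403, edgeR, and 0.000372 in DESeq2). Only 4 genes of this list of vitamin D and drug metabolism were tested, with a median of -1.07. The other 2, cyp2r1 and cyp3a65, had -0.75 and -0.31 and were called by neither tool.

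The liver X receptor gene nr1h3, a sensor of oxysterols, had 55.8, 59.1 and 53.5 CPM with oPrl and 56.6, 59.5 and 56.6 CPM with vehicle, a narrow range over all 6 fish. The difference on the log2 scale was -0.04 with a 95% interval of -0.34 to 0.27. The bile acid receptor group was represented by nr1h5 alone, with 22 counts in all. Of 14 genes of sterol and bile acid handling that such receptors control in mammals, edgeR called 1 (7.14%, compared with 1.4% of all genes). DESeq2 called 2 of the 13 with an adjusted p (15.4%, compared with 7.16% of all genes). In edgeR 8 had an unadjusted p under 0.05, 5 lower and 3 higher (57.1%, compared with 21.7% of all genes). The called gene was abcb11a, related to the bile salt export pump of mammalian liver, at 1.36, 0.246 and 1.33 CPM with oPrl and 15.8, 20.7 and 16.7 CPM with vehicle. It fell 18-fold, with a log2 fold change of -4.17 ± 0.57 (adjusted p = 0.00888, edgeR). The call held with oPrl replicate 2 left out (adjusted p = 0.00244) and was lost with each other library left out (up to 0.0408), with library totals as the only scaling (0.0111) and with the replicate number as a block (0.0227). The other gene called by DESeq2 was a CYP8B1 gene, whose mammalian counterpart acts in bile acid synthesis, at 5.29, 2.79 and 4.3 CPM with oPrl and 7.33, 8.67 and 14.1 CPM with vehicle (log2 fold change -1.28, adjusted p = 0.0849 in edgeR and 0.00597 in DESeq2). Liver X receptor targets were of both signs. The ubiquitin ligase gene mylipa, which acts on lipoprotein receptors, was lower without overlap (log2 fold change -0.94, adjusted p = 0.0269, edgeR), and lpcat3, which remodels membrane phospholipids, was higher without overlap (log2 fold change 0.94, adjusted p = 0.0272).

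Receptors of the ROR group are activators that bind the same DNA elements as the nr1d clock repressors, and ROR gamma also directs a lineage of helper T cells in mammals. The gene rorcb had 50.4, 33.7 and 48.1 CPM with oPrl and 90.5, 95.4 and 77.2 CPM with vehicle. All oPrl fish lay below all vehicle fish. The level was 1.99-fold lower, with a log2 fold change of -0.99 ± 0.19 (adjusted p = 0.0292 in edgeR, the smallest of the 49 members, and 0.000134 in DESeq2, where the log2 fold change was -1.02). It kept its sign with each library left out, at -1.10 to -0.83. The duplicate rorca had 6.92, 4.64 and 5.18 CPM with oPrl and 12.2, 9.6 and 4.63 CPM with vehicle (log2 fold change -0.66, adjusted p = 0.367, edgeR). Vehicle replicate 3 lay level with the lowest oPrl fish, and without it the value was -0.96 (adjusted p = 0.107, edgeR). Without vehicle replicate 1 it was -0.36 (adjusted p = 0.699). For rorc and roraa the groups overlapped, with log2 fold changes of 0.15 and -0.11. Without vehicle replicate 3 the value of roraa was -0.48 (adjusted p = 0.299, edgeR), but without vehicle replicate 1 it was 0.15 (adjusted p = 0.913). The gene rorb had 14 counts in all.

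The estrogen-related receptors (ERRs) are orphan receptors which, in mammals, drive genes of mitochondrial energy metabolism. Both duplicates of ERR gamma were higher with oPrl. The gene esrrga had 7.31, 10.8 and 9.67 CPM with oPrl and 4.7, 3.72 and 1.53 CPM with vehicle, without overlap. It was 2.78-fold higher, with a log2 fold change of 1.47 and a standard error of 0.41 (adjusted p = 0.0893 in edgeR and 0.00699 in DESeq2, which called it). Vehicle replicate 3 was again the low fish, and without it the value was 1.14 (adjusted p = 0.0698, edgeR). The gene esrrgb had 51.3, 63.6 and 69.2 CPM with oPrl and 43.8, 35.3 and 37.1 CPM with vehicle, also without overlap (log2 fold change 0.66 ± 0.17, adjusted p = 0.071, edgeR). Its value without vehicle replicate 3 was 0.64. ERR alpha, esrra, had 25.6 to 33 CPM with oPrl and 31.1 to 44.8 CPM with vehicle, with a log2 fold change of -0.27 (adjusted p = 0.483, edgeR). ESRRB had 27 counts in all, 13 of them in vehicle replicate 2.

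Receptors for the sex steroids were mostly at low counts in the filaments, and the androgen receptor was not analysed here. The estrogen receptor gene esr2a had 4.91, 4.85 and 5.63 CPM with oPrl and 4.49, 7.19 and 5.04 CPM with vehicle, and its log2 fold change of -0.12 had a 95% interval of -0.74 to 0.50. The genes esr1, esr2 and the progesterone receptor pgr had 104, 55 and 32 counts in all, with log2 fold changes of 0.98, 0.72 and -0.65 (adjusted p = 0.42, 0.484 and 0.765, edgeR). At these counts differences of more than 1 on the log2 scale lay within the 95% intervals of all 3 genes. Of 14 genes of sex steroid metabolism and response, edgeR and DESeq2 called 0. In edgeR 2 had an unadjusted p under 0.05 (14.3%, compared with 21.7% of all genes). The smallest p belonged to hsd17b12a, at 141 to 189 CPM with oPrl and 265 to 325 CPM with vehicle (log2 fold change -0.85, adjusted p = 0.0279, edgeR), whose mammalian counterpart also acts in fatty acid elongation. It was followed by hsd17b4, a peroxisomal enzyme (0.39, adjusted p = 0.184), and the aromatase gene CYP19A1 (-1.33, adjusted p = 0.237), at under 1 CPM in every fish.

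Receptors of the NR4A group are orphan receptors made within minutes of a stimulus, as immediate early genes. The gene nr4a1 (ENSONIG00000016717) had 5.32, 17.2 and 7.33 CPM with oPrl and 79, 33.8 and 19.7 CPM with vehicle. The groups did not overlap, but oPrl replicate 2 came close to vehicle replicate 3. The level was 4.44-fold lower, with a log2 fold change of -2.15 ± 0.61 (adjusted p = 0.0929 in edgeR and 0.00187 in DESeq2, which called it). The value was -1.44 without vehicle replicate 1 (adjusted p = 0.226, edgeR) and -2.80 without oPrl replicate 2 (adjusted p = 0.0584). Its duplicate NR4A1 (ENSONIG00000019260) had 9.02, 23.6 and 15.5 CPM with oPrl and 45.7, 22.7 and 12 CPM with vehicle. These groups overlapped, with a log2 fold change of -0.74 (adjusted p = 0.471, edgeR) that was -0.12 without vehicle replicate 1. The gene nr4a3 had 5.89, 11.2 and 6.7 CPM with oPrl and 15.5, 14.2 and 12.6 CPM with vehicle, without overlap (log2 fold change -0.83, adjusted p = 0.143, edgeR). It was -1.16 without oPrl replicate 2, which was the highest oPrl fish for all 3 genes (adjusted p = 0.0327). With each library left out in turn nr4a3 was at -1.16 to -0.65 (adjusted p of 0.0327 to 0.337, edgeR). With 45 counts in all, nr4a2a had a log2 fold change of -1.11 (adjusted p = 0.345).

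Some other immediate early genes were also lower with oPrl. Of 17 tested, edgeR called 1, klf4 (5.88%, compared with 1.4% of all genes). DESeq2 called 4 of the 16 with an adjusted p, klf4, jun, dusp1 and fosb (25%, compared with 7.16% of all genes). All were lower with oPrl. The median log2 fold change was -0.64, with 11 lower and 6 higher. The epithelial transcription factor gene klf4 had 7.84, 14.8 and 11.9 CPM with oPrl and 220, 155 and 84.1 CPM with vehicle, a 13.3-fold fall with a log2 fold change of -3.73 ± 0.41 (adjusted p = 0.00484, edgeR). The call held without vehicle replicate 3 and was lost without each other library (adjusted p of up to 0.0296), and also with the replicate number as a block (0.0159). The gene jun, a subunit of the AP-1 transcription factor, had 24.6, 48.5 and 31.1 CPM with oPrl and 202, 180 and 111 CPM with vehicle (log2 fold change -2.24, adjusted p = 0.0108, edgeR). The phosphatase gene dusp1 had 40.4, 73.8 and 38.3 CPM with oPrl and 392, 205 and 205 CPM with vehicle (log2 fold change -2.39, adjusted p = 0.0135). The gene fosb, another AP-1 subunit, had 0.532, 1.5 and 0.877 CPM with oPrl and 12.5, 16.5 and 2.65 CPM with vehicle (log2 fold change -3.44, adjusted p = 0.035). As for nr4a1, oPrl replicate 2 was the highest oPrl fish and vehicle replicate 1 the highest vehicle fish for klf4, jun and dusp1. The part of epithelial markers, of which krt5 and krt8 were lower and tp63 higher without overlap, in these values was not tested.

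**Figure D4:**
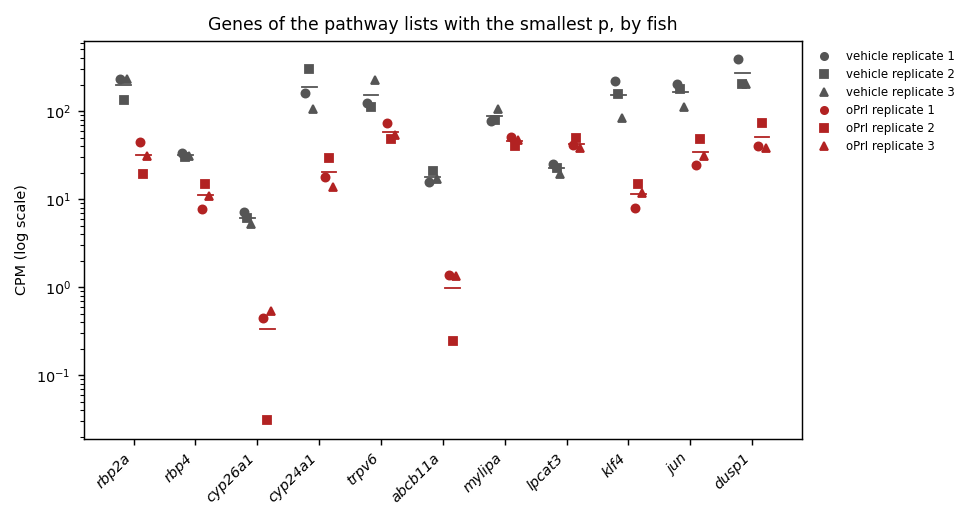
CPM on a log scale in each fish for the genes with the smallest edgeR p in the retinoid, vitamin D, sterol and immediate early lists, with vehicle fish in grey, oPrl fish in red, a marker shape per replicate and a bar at the group mean. The genes were chosen by p, so a lack of overlap was likely beforehand. The groups do not overlap in any gene shown, compared with 7 of 19, 2 of 4, 8 of 14 and 7 of 17 genes in the whole lists. Of the genes shown lpcat3 alone is higher with oPrl, and the cyp26a1 value of oPrl replicate 2, at 0.0307 CPM, rests on 1 count.

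The COUP-TF group (nr2f) holds orphan receptors that largely repress transcription. It was split in direction. The gene nr2f6b had 58.5, 88.7 and 69.5 CPM with oPrl and 116, 117 and 200 CPM with vehicle, without overlap. It was 2-fold lower, with a log2 fold change of -0.997 ± 0.27 (adjusted p = 0.0763 in edgeR and 0.00661 in DESeq2, which called it). Vehicle replicate 3, the lowest vehicle fish for many other receptors, was the highest here, and without it the value was -0.69 (adjusted p = 0.0977, edgeR). The other 4 genes of the group, nr2f1a, nr2f2, nr2f5 and nr2f6a, had log2 fold changes of 0.48, 0.51, 0.56 and 0.52 (adjusted p of 0.223 to 0.437, edgeR). The oPrl fish lay above the vehicle fish in nr2f2, nr2f5 and nr2f6a, 3 of the 5 genes, compared with 16.3% of all genes. In nr2f5 the groups almost met, with oPrl replicate 2 at 6.85 CPM and vehicle replicate 2 at 6.82 CPM. Without vehicle replicate 3 the value of nr2f5 was 0.25. The 4 genes stayed higher with each library left out and with library totals as the only scaling.

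Of the testicular receptors, which bind direct repeats that other receptors also use, nr2c2 had 31.7, 26.5 and 29.3 CPM with oPrl and 41.8, 39.9 and 38.3 CPM with vehicle. The groups did not overlap, and edgeR gave a log2 fold change of -0.45 ± 0.15 (adjusted p = 0.129). For nr2c1 they overlapped, with a log2 fold change of 0.10 and a 95% interval of -0.26 to 0.46. The remaining receptors nr5a2, hnf4g and nr6a1a had group means between 1.03 and 6.74 CPM, groups that overlapped and log2 fold changes of -0.34, -0.54 and 0.31. The corepressor-like receptor nr0b2, which lacks a DNA-binding domain, had 23 counts in all and a log2 fold change of -1.60 with a 95% interval of -3.35 to 0.14.

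Genes of the general receptor machinery were called by neither tool. Of 21 coactivator genes 18 were higher and of 13 corepressor genes 9, with medians of 0.15 for both, compared with 0.02 for all genes. edgeR and DESeq2 called 0 in either list. At an unadjusted p under 0.05 edgeR had 6 and 2 genes, all higher (28.6% and 15.4%, compared with 21.7% of all genes). The smallest p belonged to the Mediator subunit genes med1, med24 and med14, which link receptors to RNA polymerase, with log2 fold changes of 0.55, 0.44 and 0.48 (adjusted p of 0.0718 to 0.132, edgeR). Among corepressors the histone deacetylase genes hdac1 and hdac3 had 0.73 and 0.58 (adjusted p = 0.0912 and 0.2) and tbl1x 0.45 (adjusted p = 0.277). Of the receptor-associated members, thrap3b, which acts in splicing as well, had 136 to 155 CPM with oPrl and 94 to 117 CPM with vehicle (log2 fold change 0.40, adjusted p = 0.177, edgeR). Its duplicate thrap3a had 64 to 65.5 CPM with oPrl and 74.4 to 80.9 CPM with vehicle (-0.27, adjusted p = 0.276). The gene nr2c2ap had 6.27, 15.5 and 7.75 CPM with oPrl and 5.3, 4.26 and 6.82 CPM with vehicle, and its log2 fold change of 0.85 was 0.36 without oPrl replicate 2.

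Across the 9 pathway lists together, 135 genes were tested, 118 of them with a mean of at least 1 CPM, compared with 17629 of all 24878. The lists were chosen with earlier results of these data known, so their shares cannot test whether these pathways stand apart. edgeR called 3 of these, all lower with oPrl (2.22%, compared with 1.4% of all genes in either direction and 0.687% lower). DESeq2 called 12 of the 127 with an adjusted p, again all lower (9.45%, compared with 7.16% of all genes in either direction and 3.5% lower).

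Many receptor genes of tilapia are held as duplicates, and the ratio of the duplicates within a fish does not depend on how libraries are scaled. For 9 pairs the log2 ratio of counts was compared between groups by a two-sided exact permutation test over the 6 fish, which cannot give a p under 0.1. The ratios of oPrl and vehicle fish did not overlap in 6 of 9 pairs (66.7%, exact permutation p = 0.1 each and 0.15 after adjustment over the 9 pairs), with a median absolute difference of 0.79 on the log2 scale. A background was at hand only for pairs whose symbols differ in a final a or b alone, of which 30.8% of 1034 in the table did not overlap, with a median of 0.48. Of the 9 receptor pairs 4 are of this kind, and 2 of these did not overlap, with a median absolute difference of 0.68 over the 4. The other 5 pairs, 4 of them without overlap, have no such background. The gene counts are described as unique, so that reads fitting both duplicates of a pair may be missing from both.

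The log2 ratio of ppara (ENSONIG00000016715) to PPARA (ENSONIG00000008831) was -0.52, -0.19 and -0.68 in the oPrl fish and 0.55, 1.11 and 1.08 in the vehicle fish. Every oPrl fish lay below every vehicle fish, a difference of -1.38. For nr4a1 to NR4A1 the ratio was -0.75, -0.46 and -1.08 with oPrl and 0.79, 0.57 and 0.72 with vehicle, a difference of -1.45. The vehicle fish were close to each other in this ratio, with a standard deviation of 0.11, although nr4a1 itself ranged from 19.7 to 79 CPM among them. The ratio of nr2f6a to nr2f6b was -2.69, -3.20 and -2.77 with oPrl and -4.01, -3.95 and -5.21 with vehicle, a difference of 1.5, or 1.10 without vehicle replicate 3. The ratio of RARG to rargb was 1.41, 1.85 and 1.49 with oPrl and 0.67, 0.94 and 0.77 with vehicle, a difference of 0.79. For esrrga to esrrgb the difference was 0.93, and 0.49 without vehicle replicate 3. The ratio of esr2a to esr2 differed by -0.67, but esr2 had only 4 to 15 counts per library. The RXRB and rxrbb, rorca and rorcb, and raraa and rarab pairs overlapped between groups.

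**Figure D5:**
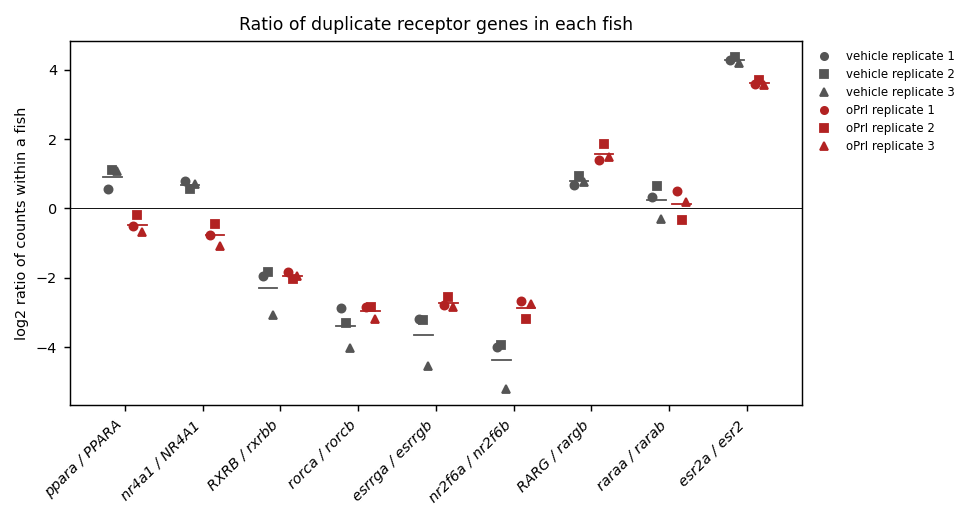
Log2 ratio of the counts of 2 duplicate receptor genes within each fish, for 9 pairs, with vehicle fish in grey, oPrl fish in red, a marker shape per replicate and a bar at the group mean. The groups do not overlap for the pairs of ppara, nr4a1, esrrg, nr2f6, rarg and esr2, and vehicle replicate 3 lies lowest for the pairs of rxrb, rorc, esrrg and nr2f6.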

How the data were processed

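RNA from gill filaments of 6 fish was sequenced by the authors, who removed adapters with Trimmomatic 0.36, mapped reads with STAR 2.5.2b to the Ensembl Nile tilapia (Oreochromis niloticus) genome and obtained what they call unique gene counts with featureCounts. The deposited values are raw counts per gene. Neither build nor strand setting is named in the sources used here, so overlapping genes on opposite strands cannot be told apart, and no sequence or gene length was used. The row without a gene ID held 0.0901% to 0.135% of the counts and was left out.

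For genes with at least 10 counts, edgeR 4.0.16 (R 4.3.3; TMM, quasi-likelihood test, Benjamini-Hochberg over all genes) gave the calls, which needed an adjusted p under 0.01 and a log2 fold change beyond 1 in either direction. DESeq2 1.42.0, the study's tool, was an alternative. Standard errors were derived from the F statistic. Ratios of duplicates used 2 added counts. The tests were also run on simulated data, with changes larger than those of most members. That run does not show how smaller changes would be called.

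Described singly were members called by either tool, the 10 smallest edgeR p among members with a mean of at least 1 CPM, the 3 highest mean CPM, not corrected for gene length (RARG, thrap3b and nr2f6b) and duplicates of these, and in pathway lists the genes called and the 3 smallest p. A gene that this rule names is not reported here. Members, lists and rules were chosen with earlier results of these data known. Lists were matched on symbols, and hrc, lratd1 and lratd2, other genes caught by the match, were removed after it was seen. Libraries of a group differed by 28.4 to 107 chi-square units per degree of freedom, so none was counted as a repeat.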

Additional observations from a re-analysis of the deposited data

How the results depend on the processing

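The 49 members had 0 calls by edgeR under RLE size factors, library totals, 2 other count filters, the robust fit, the replicate block and each library left out (from 0 to 0), and 5 by DESeq2. At an adjusted p under 0.05 edgeR had 3 (ppara, rorcb and pparg), and 1 (ppara) with an absolute log2 fold change over 1. All genes called, 349 in the main analysis, were 1496 by DESeq2, and 1520 and 1147 at an adjusted p under 0.05 without and with that limit, 30 with the replicate block, and 0 to 221 with a library left out (oPrl replicates 1, 2 and 3 gave 30, 221 and 10, and vehicle replicates 0, 25 and 148). With library totals 505 were called, 70.9% of them higher, compared with 51% under TMM. Genes called in the pathway lists, 3 in all, were 12 by DESeq2, 7 with no filter beyond 1 count, 5 with at least 1 CPM in 3 libraries and 0 to 7 with a library left out. The replicate numbers did not pair the fish (correlations of same-numbered deviations of -0.13, -0.05 and 0.01). The difference in the ratio of raraa to rarab, -0.11, was 0.12 without oPrl replicate 2 and 0.10 without vehicle replicate 2, in a range of -0.38 to 0.12, and that of RXRB to rxrbb, 0.35, was -0.046 without vehicle replicate 3, in a range of -0.046 to 0.57. The other 7 pairs kept their sign.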

Other observations

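The spread among the vehicle fish was not the same for all receptors. The 9 members that vehicle replicate 3 held more than 2-fold below the lower of the other vehicle fish were rxraa, RXRB, thrab, vdrb, roraa, rorca, esrrga, nr2f5 and ppargc1a. In no other library did more than 2 of the 41 members at this level fall so low beside its own group, and those were hnf4g and nr6a1a in oPrl replicate 2. Vehicle replicate 1 was the highest of the 6 libraries for 16 of the 41 members (39%), compared with 12.1% of all 17629 genes, and it was more than 2-fold above the higher of the other vehicle fish for nr4a1 and NR4A1. The sums of erythrocyte and skeletal muscle markers were 924 and 278 CPM in vehicle replicate 3, compared with 809 and 150 CPM in vehicle replicate 1 and 578 and 25.9 CPM in vehicle replicate 2. Its leukocyte and endothelial sums, 2170 and 311 CPM, were the highest of the 6 fish, but the erythrocyte sum was higher in oPrl replicate 1 (1174 CPM). Erythrocyte markers were mixed in vehicle replicate 3: klf1, tfr1b and sptb were at their lowest of the 6 fish, and slc4a1b and tfr1a at their highest (named after their values were seen). The part of these cell types in the low values was not tested. With vehicle replicate 3 left out, 32 members were lower and 17 higher with oPrl, with a median log2 fold change of -0.29, compared with 0.03 for all genes in the same fit. That fish was singled out for its low values in these same members, so a shift to lower was likely beforehand. Without vehicle replicate 1 there were 26 lower and 23 higher (median -0.06). Without vehicle replicate 2 there were 25 lower and 24 higher (median -0.02).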
